A study of Mus musculus with 6 samples.

Results

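The 56 genes described here belong to autophagy and to the lysosome. They were chosen by name, as components of a degradation pathway that Lmx1b, a LIM-homeodomain transcription factor, is known to sustain in adult dopamine neurons, and all 56 were found among the 26852 genes of the deposited table. RNA was sequenced from midbrain that had been dissected from mouse embryos at E14.5. The 3 libraries of the Lmx1b cKO came from Lmx1b fl/fl;Pitx3-Cre embryos, in which the floxed Lmx1b alleles are deleted in cells that express Pitx3, and the 3 control libraries came from Lmx1b wt/wt;Pitx3-Cre littermates. Both groups thus carried the Pitx3-Cre allele, had a C57Bl/6 background (C57BL/6J in the study's methods) and received no other treatment, and RNA of several embryos was pooled in each library. The paper writes the genotype as Pitx3Cre/+ and speaks of a lost Pitx3 allele, so the control is not wild type for Pitx3. The Cre is driven by the Pitx3 locus, which in the midbrain is active in mesodiencephalic dopaminergic (mdDA) neurons, so the other cells of the dissected tissue keep Lmx1b and each value is an average over all cells of the midbrain.

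Autophagy encloses cytoplasm in a double membrane and delivers it to the lysosome. The ULK1 complex starts the process, a class III PI3-kinase marks the membrane with PI3P, ATG9 and ATG2 proteins supply lipid, and conjugation enzymes attach ATG8 proteins (LC3 and GABARAP) to the membrane, where they hold cargo receptors such as p62. The lysosome, which the V-ATPase acidifies, then digests the content with proteases, glycosidases and lipases. Many of these genes are activated together by TFEB, TFE3 and MITF, the MiT/TFE transcription factors, which bind the E-box CACGTG. Neurons depend strongly on this pathway, and defects in several of the members (Psap, Gaa, Gla, Npc1, Grn) cause lysosomal storage or neurodegenerative disease.

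Promoter windows from RefSeq (build GRCm38.p6), covering 250 bases before to 50 bases after a gene start, were on hand for 47 of the 56 genes. The genes without a window are Rb1cc1, Becn1, Pik3c3, Atg12, Atg16l1, Map1lc3a, Npc1, Ctsb and Atp6v1h. The palindrome TCACGTGA, an E-box with the flanks that MiT/TFE factors prefer, was searched on both strands and was present in 7 of the 47 genes (14.9%), against 1.12% of the 27025 genes with such a window. The sites are shown because they are the sequence feature that these members share, in stretches of 30 bases written 5′ to 3′ on the strand of the gene, with the palindrome in capitals.
Atg3: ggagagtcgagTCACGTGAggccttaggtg
Atp6v0d1: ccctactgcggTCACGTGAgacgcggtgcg
Atp6v1a: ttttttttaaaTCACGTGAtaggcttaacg
Ctsa: ctgTCACGTGAtgcagatgcTCACGTGAcc
Ctsd: tcgcccgcgtcTCACGTGAcccgttgaggg
Gla: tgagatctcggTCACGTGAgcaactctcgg
Mcoln1: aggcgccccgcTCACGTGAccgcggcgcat
These stretches lie at chr16:45158746-45158775 (plus strand) for Atg3, chr8:105566050-105566079 (minus) for Atp6v0d1, chr16:44139373-44139402 (minus) for Atp6v1a, chr2:164833757-164833786 (plus) for Ctsa, chr7:142387908-142387937 (minus) for Ctsd, chrX:134601182-134601211 (minus) for Gla and chr8:3500462-3500491 (plus) for Mcoln1. The stretch of Ctsa holds 2 sites that are separated by 9 bases, and Gla has 2 sites, of which 1 is shown. The 7-base form TCACGTG, which TCACGTGA contains, was present in 12 of the 47 genes (25.5%) and in 4.29% of all genes, with 4 sites in the window of Lamp1. The 6-base E-box CACGTG, which both contain, was present in 14 of the 47 (29.8%) and in 8.09% of all genes. Besides the 7 genes above, those 14 are Atg14, Atg5, Atg7, Ctsl, Gaa, Glb1 and Lamp1. A match describes letters in a window and not a bound site.

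Between 25026646 and 30324258 reads per library were recovered from the deposited group means, which are averages of read counts divided by a size factor per library. A normalized count is such a count divided by the size factor. The headers of the deposited means use the same library numbers in both groups, but a recovered library cannot be tied to a number. The recovered libraries are therefore called a, b and c in each group, the library with the largest size factor first. Lmx1b itself had normalized counts of 1257, 1401 and 1455 in the cKO and 1368, 1352 and 1474 in the control libraries, which overlap (two-sided exact permutation test, p = 0.8, with 0.1 as the smallest value for groups of 3). The total of this gene is thus no check of the genotypes, and a direction given here compares libraries labelled cKO with libraries labelled control. The 10 mdDA marker genes, which include Th and Slc6a3, summed to 10886 to 11270 normalized counts in the cKO against a range of 10761 to 12763 in the control, with none of them at 0, and at an unadjusted limma p-value under 0.05 1 of them (Aldh1a1) was higher and 3 (Ddc, Pitx3 and En1) were lower in the cKO. Their median log2 fold change was -0.20, and 8 of the 10 lay below 0. Aldh1a1 had 981, 672 and 816 normalized counts in the cKO against 337, 554 and 439 in the control (log2 fold change 0.92, SE 0.18), and En1 had 940, 1058 and 1147 against 1277, 1326 and 1540 (log2 fold change -0.40, SE 0.094). Ddc had a log2 fold change of -0.24 (SE 0.10) and Pitx3 of -0.41 (SE 0.18). None of these 4 genes overlapped between the groups, but they were picked by their p-value, and all 4 had adjusted limma p-values of 1.00. Of the 17045 genes tested, 1.16% were higher and 1.61% lower at an unadjusted limma p-value under 0.05, and 7.59% did not overlap. Library cKO c stood apart in 12 bone and mesenchyme markers, which summed to 16352 there, to 3538 in cKO a and to at most 1923 in the other 4 libraries. The 4 Y-linked genes summed to 4423, 4938 and 3597 normalized counts in the cKO against 2476, 7631 and 8585 in the control, so control a stood apart from the other 2 control libraries.

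Transcripts of the 56 genes took between 0.593% and 0.605% of the recovered normalized counts in each of the 6 libraries. Their sum was 162648 ± 1309 normalized counts in the cKO against 161891 ± 1830 in the control (mean ± SD, n = 3). All 56 passed the minimum mean normalized count of 10 that was set for the test. The log2 fold change of cKO over control was above 0 for 31 genes and below 0 for 25, and its median was 0.01, against 0.00090 over the 17045 genes tested. With sample quality weights this median was -0.0064, so its sign is not firm. In limma's test 1 gene of 56 (1.79%), Atg2b, had an unadjusted p-value under 0.05, where 473 of all genes tested (2.78%) did. Of all genes tested, 1.16% were higher and 1.61% lower in the cKO at that threshold. After Benjamini-Hochberg adjustment over the 17045 genes, 0 of the 56 had an adjusted p-value under 0.05, and this share was 0% over all genes as well. The lowest adjusted p-value of limma over the 56 genes was 1.00.

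The intervals around these differences were narrow. For 41 of the 56 genes (73.2%) the whole 95% confidence interval of limma lay within a 1.2-fold change in either direction, and for 53 (94.6%) it lay within a 1.5-fold change. Over all genes tested these shares were 42.0% and 70.8%. They were 55.9% and 93.1% over the 12813 genes whose mean was at least 100 normalized counts, which 54 of the 56 reach. All 7164 genes tested whose interval lay within 1.2-fold had such a mean. The sets were not matched by level beyond this cut, so the part of level in the widths and SDs compared here was not tested. Of the 56 genes, those whose interval reached past 1.5-fold were Tfeb, Mitf and Atg10. The median size of the log2 fold change was 0.043 over the 56 genes and 0.068 over all genes tested. Above a mean of 100 it was 0.042 for 54 of the 56 genes and 0.050 for all genes. The cKO mean lay within 10% of the control mean for 52 genes, and the exceptions were Mitf, Cd63, Tfeb and Gla. The median SD of log2 values within a group was 0.070 over the 56 genes, against 0.129 over all genes tested and 0.099 over those above a mean of 100. The steadiest gene was Atp6v1h, a regulatory subunit of the V-ATPase, with an SD of 0.014.

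**Figure D1:**
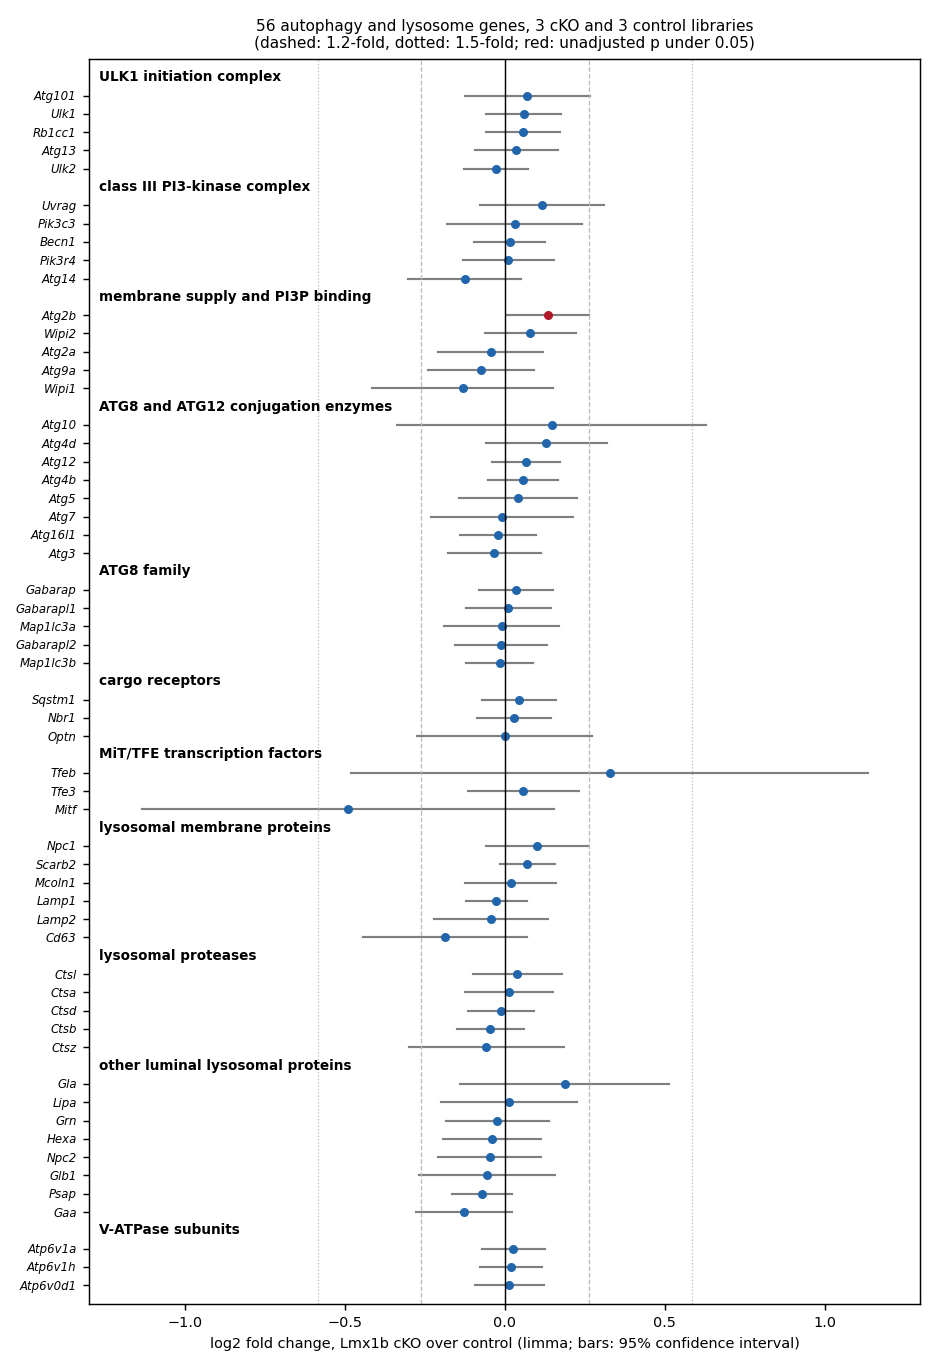
Log2 fold change of each of the 56 genes, cKO over control, ordered within 11 roles in the pathway, where points are limma estimates from 3 libraries per group and bars are 95% confidence intervals. Apart from the Mitf point at -0.49 and the Tfeb point at 0.33, all points lie between -0.19 and 0.19, the interval of Atg2b (red, unadjusted p under 0.05) starts just above 0, and the intervals of Tfeb, Mitf and Atg10 pass the dotted lines at 1.5-fold.

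Levels of different genes were compared as normalized counts per kb of exon. Psap, which encodes the precursor of the saposins that help to degrade sphingolipids, had the highest level, with 5683, 5272 and 5274 per kb in cKO a, b and c and 5605, 5622 and 5855 in control a, b and c. No other member reached these values in any library. Gabarap followed, with 3396 per kb in the cKO and 3312 in the control. The next 4, the V-ATPase subunit Atp6v0d1, the lysosomal membrane glycoprotein Lamp1, Gabarapl1 and Map1lc3a, overlapped each other between libraries, with values from 2297 to 2966 per kb. At the lower end stood Gla, Atg10 and Wipi1, at 87.7, 84.5 and 75.9 per kb in the cKO, and far below them Tfeb and Mitf. The pathway thus spanned from 5855 per kb, the highest library of Psap, to 4.63 per kb, the lowest library of Tfeb.

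**Figure D2:**
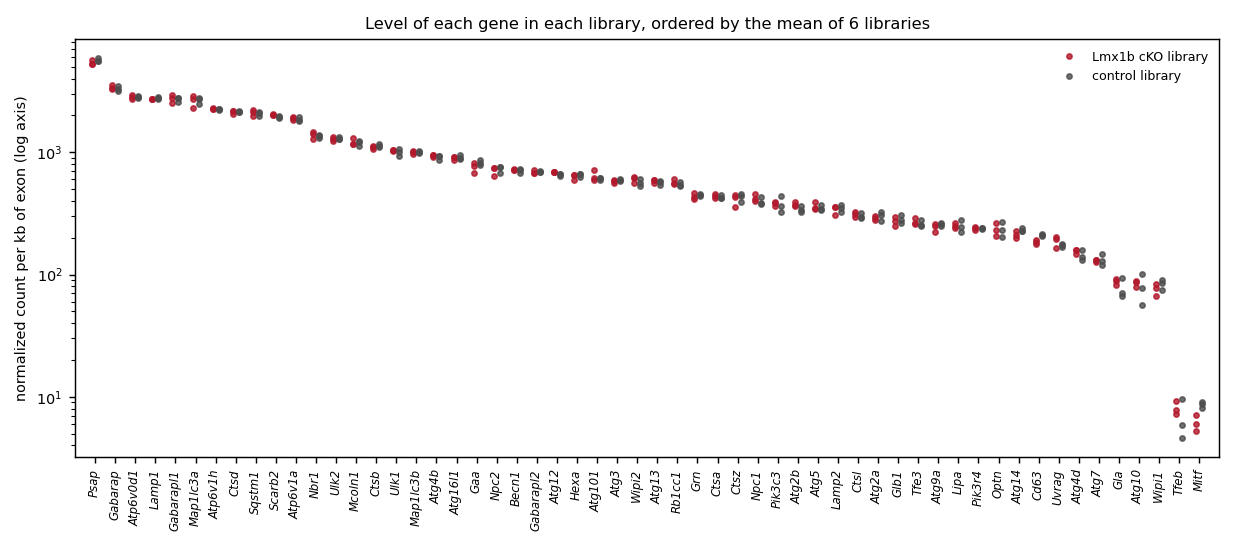
Level of each of the 56 genes in normalized counts per kb of exon (log axis), in 3 cKO and 3 control libraries (points), with genes ordered by the mean of 6 libraries. The order runs from Psap (5410 per kb in the cKO and 5694 in the control) down to Tfeb and Mitf, which stand apart from the other 54 genes.

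The ATG8 family labels the autophagosome membrane, and 5 of its members are on the list. Gabarap had normalized counts of 4478, 4750 and 4535 in the cKO and 4694, 4261 and 4467 in the control. The counts of Gabarapl1 were 5308, 5054 and 4571 in the cKO and 4718, 5100 and 5010 in the control. For Map1lc3a, which encodes LC3A, they were 3224, 3009 and 2554 in the cKO and 2741, 3024 and 3089 in the control. All 3 genes overlapped between the groups, and Gabarapl1 and Map1lc3a each had their lowest value in cKO c, the library with the high bone and mesenchyme markers. Whether that tissue has a part in these low values was not tested.

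Map1lc3b, which encodes LC3B, the usual marker protein of autophagosomes, had normalized counts of 5185, 5322 and 4989 in the cKO and 5100, 5231 and 5354 in the control. Gabarapl2 had 1129, 1142 and 1191 in the cKO and 1151, 1164 and 1176 in the control. Both overlapped between the groups as well. Map1lc3b too had its lowest value in cKO c, while Gabarap and Gabarapl2 did not. The log2 fold changes of the family lay between -0.02 and 0.04, and the fold interval of Map1lc3b was 0.920 to 1.06. Per kb of exon, Gabarap made up 32.5% ± 1.7 of the family in the cKO and 31.9% ± 1.9 in the control, Gabarapl1 26.2% ± 0.76 and 26.1% ± 0.80, and Map1lc3a 25.2% ± 1.7 and 25.5% ± 1.2 (mean ± SD, n = 3). Map1lc3b made up only 9.55% ± 0.27 of the family in the cKO and 9.71% ± 0.064 in the control, although its mean count was the highest, because its exons cover 5.18 kb. Gabarapl2 had the smallest share, at 6.60% ± 0.54 and 6.68% ± 0.047. Each library of Gabarap lay above each library of Gabarapl1 and Map1lc3a, while the latter 2 overlapped each other. Of the exon length of Gabarapl1, 28.3% is shared with 1700101I11Rik on the opposite strand. The effect of this overlap on the shares and on this order was not tested.

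**Figure D3:**
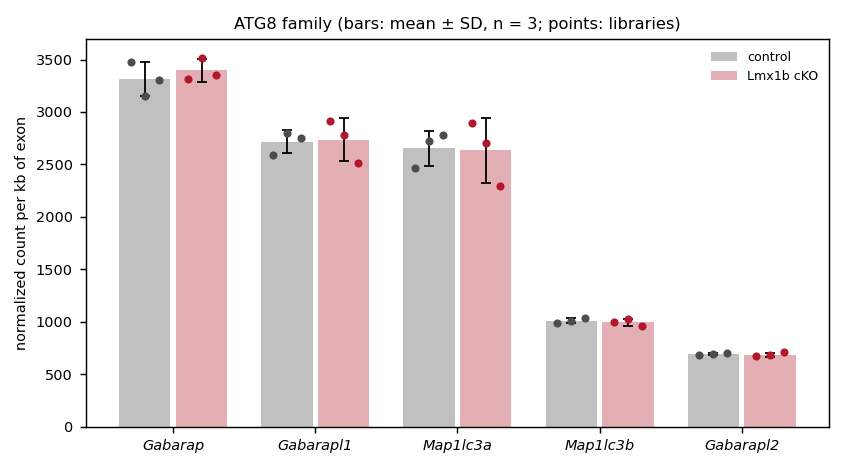
Level of the 5 ATG8 family genes in normalized counts per kb of exon, in control and Lmx1b cKO (bars and error bars: mean ± SD, n = 3, points: libraries). Gabarap stands highest, Gabarapl1 and Map1lc3a overlap, Map1lc3b and Gabarapl2 are lowest, and for each gene the control and cKO libraries overlap.

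Among the MiT/TFE factors, which drive lysosomal genes when nutrients are scarce, Tfe3 was by far the most abundant. In the libraries it had normalized counts of 1057, 938 and 955 in the cKO and 926, 1002 and 908 in the control, so the groups overlapped (log2 fold change 0.06, SE 0.080). Tfeb had 29.0, 37.0 and 31.4 normalized counts in the cKO against 18.6, 38.4 and 23.8 in the control. Control b had the highest of these values and control a the lowest, and the groups overlapped, with an SD of log2 values of 0.38, the widest of the 56 genes. The log2 fold change of Tfeb was 0.33 (SE 0.37), and its 95% confidence interval ran from 0.716-fold to 2.20-fold, on 21 to 40 reads per library.

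Mitf (ENSMUSG00000035158, chromosome 6 of GRCm38 from 97807052 to 98021349) had 31.9, 38.0 and 28.1 normalized counts in the cKO against 47.8, 43.2 and 46.4 in the control. Each cKO library lay below each control library. The log2 fold change was -0.49 (SE 0.29) and did not pass limma's test, with an unadjusted p-value of 0.123 and an adjusted p-value of 1.00, on 26 to 54 reads per library. Per kb of exon, Tfe3 made up 95% ± 0.83 of the 3 factors in the cKO and 94.5% ± 0.48 in the control, Tfeb 2.85% ± 0.49 and 2.40% ± 0.78, and Mitf 2.16% ± 0.38 and 3.13% ± 0.32 (mean ± SD, n = 3).

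Of the genes that act early, the ULK1 complex holds the kinases Ulk1 and Ulk2 with Atg13, Atg101 and the scaffold Rb1cc1. Its log2 fold changes lay between -0.03 and 0.07, 4 of 5 of them above 0. In limma's test 0 of 5 passed at an unadjusted p-value under 0.05, where 2.78% of all genes tested did. Nothing is read from such a count in a step of few genes, here or in the steps below. Ulk2 was the more abundant kinase per kb, with 55.3% ± 1.1 of the pair in the cKO and 56.8% ± 1.6 in the control. The class III PI3-kinase complex (the kinase Pik3c3, its adaptor Pik3r4, Becn1, and the alternative subunits Atg14 and Uvrag) also had 0 of 5 past that threshold. Its 2 alternative subunits, which direct the kinase to autophagosomes and to endosomes, lay at the ends of the range. Atg14 had 748, 852 and 790 normalized counts in the cKO against 896, 850 and 849 in the control, with a log2 fold change of -0.13 (SE 0.081). Uvrag had 1044, 1006 and 857 in the cKO and 862, 923 and 901 in the control, with a log2 fold change of 0.12 (SE 0.088). Both overlapped between the groups, and the difference between the 2 fold changes was not tested.

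Atg2b (ENSMUSG00000041341, chromosome 12 of GRCm38 from 105616136 to 105685211) encodes a lipid transfer protein that feeds the growing autophagosome membrane. The libraries held normalized counts of 2933, 2784 and 2741 in the cKO and 2525, 2728 and 2455 in the control. Each cKO library lay above each control library, but cKO c exceeded control b by little. The cKO mean was 9.73% above the control mean, with a log2 fold change of 0.14 (SE 0.059, 95% confidence interval 0.0066 to 0.26), an unadjusted p-value of 0.0409 and an adjusted p-value of 1.00 in limma's test. The exact permutation test gave p = 0.1, the smallest that it can give here. The unadjusted p-value of limma rose to between 0.0437 and 0.153 when any of cKO a, cKO b, cKO c, control a or control c was left out, and fell to 0.0158 without control b. Its paralogue Atg2a had a log2 fold change of -0.04 (SE 0.074), and the other 3 genes of this step, Atg9a, which encodes a lipid scramblase, and the PI3P-binding Wipi1 and Wipi2, lay between -0.13 and 0.08 with 0 past the threshold.

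Atg2b was 1 of 5 genes (8.93%) whose libraries did not overlap between the groups, where 7.59% of all genes tested did not overlap. Higher in all 3 cKO libraries were Atg2b, Atg12 and Scarb2, and lower were Mitf and Cd63. Atg12, the ubiquitin-like protein that is joined to ATG5, had 3289, 3272 and 3264 normalized counts in the cKO against 3165, 3144 and 3073 in the control. These libraries were among the closest to each other within a group, and the groups differed by 4.74% of the control mean (log2 fold change 0.07, SE 0.048). Scarb2, which encodes the receptor that carries β-glucocerebrosidase to the lysosome, had 9734, 9527 and 9431 in the cKO and 9019, 9223 and 9087 in the control. The groups were separated by a small step, 4.99% of the control mean (log2 fold change 0.07, SE 0.040).

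Cd63, a tetraspanin of late endosomes and lysosomes, had 276, 265 and 257 normalized counts in the cKO against 298, 303 and 311 in the control. Its cKO libraries lay lower throughout, by 12.5% of the control mean on average (log2 fold change -0.19, SE 0.12). In limma's test Atg12, Scarb2 and Cd63 had unadjusted p-values of 0.193, 0.101 and 0.135 and adjusted p-values of 1.00. Cd63 is also expressed in microglia and macrophages, whose 14 markers summed to 1982 to 2038 normalized counts in the cKO against a range of 2024 to 2145 in the control, with 0 of 14 past an unadjusted p-value under 0.05 in limma's test, none at 0 and a median log2 fold change of -0.12. The log2 fold changes of these 14 markers ran from -0.53 to 0.29. The 7 neural progenitor markers summed to 35186 to 41757 in the cKO and to 40203 to 44587 in the control. Their log2 fold changes ran from -0.33 to 0.24, with a median of -0.13. At an unadjusted limma p-value under 0.05, 3 of the 7 (Fabp7, Slc1a3 and Hes5) were lower and 0 higher, with 0 past adjustment. Of all genes tested, 1.61% were lower and 1.16% higher at that threshold. The part of these cell types in the values of Cd63 was not tested, and fewer cells of a type and less RNA per cell cannot be told apart in such bulk tissue.

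**Figure D4:**
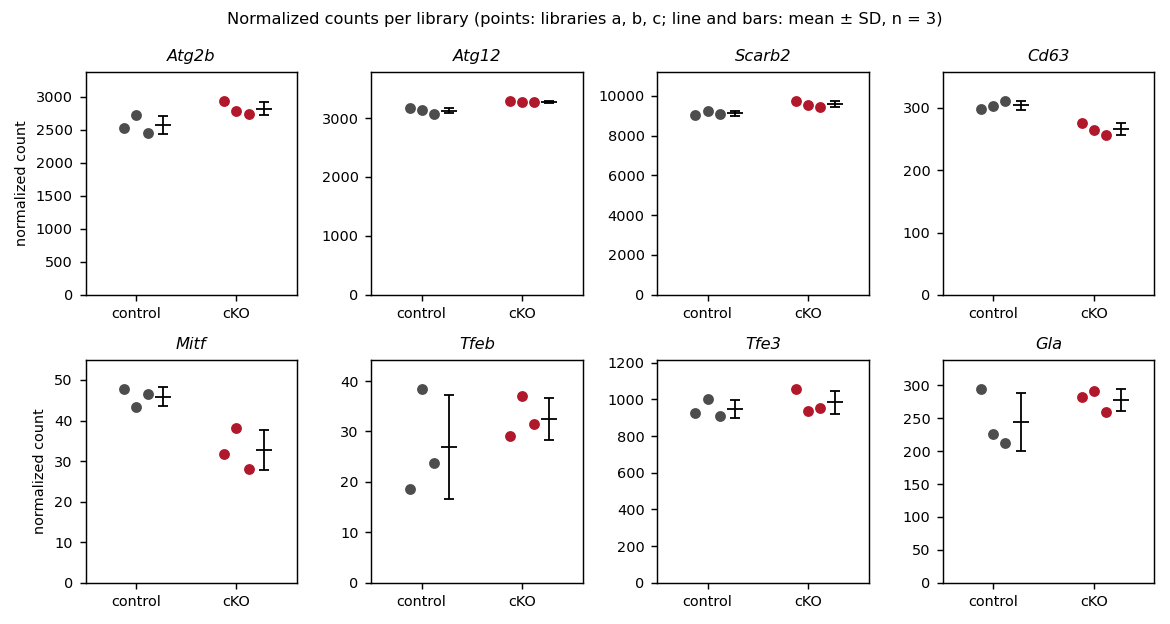
Normalized counts (y axis from 0) of 8 genes in the 3 control and 3 cKO libraries (points), with mean ± SD (n = 3). Atg2b, Atg12 and Scarb2 are higher and Cd63 and Mitf lower in each cKO library than in each control library, Tfeb, Tfe3 and Gla overlap, and the steps of Atg12 and Scarb2 are under 5% of the control mean.

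The conjugation enzymes (Atg7 as the E1, Atg3 and Atg10 as E2 enzymes, the Atg12, Atg5 and Atg16l1 complex, and the proteases Atg4b and Atg4d) had a median log2 fold change of 0.05, and 0 of 8 passed limma's test at an unadjusted p-value under 0.05. Atg10 had the second widest spread of the 56 genes, with 140, 136 and 126 normalized counts in the cKO against 159, 89.3 and 122 in the control. The highest and the lowest of these 6 values were both from control libraries. Atg4b made up 85.9% ± 0.24 of the 2 proteases per kb in the cKO and 86.4% ± 1.1 in the control. The 3 cargo receptors lay between -0.00042 and 0.04 on the log2 fold change scale, with 0 past the threshold. Optn, a receptor for damaged mitochondria, had 684, 537 and 600 normalized counts in the cKO against 528, 704 and 606 in the control, so that the groups overlapped almost entirely. Sqstm1, which encodes p62, had 6282, 6026 and 5635 in the cKO and 5595, 5857 and 5980 in the control, again with overlapping groups.

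In the lysosome itself, 0 of 22 genes passed limma's test at an unadjusted p-value under 0.05, where 2.78% of all genes tested did. With so few genes nothing is read from this count. The membrane proteins lay between the -0.19 of Cd63 and the 0.10 of Npc1, a cholesterol exporter. Lamp1 made up 88.9% of the LAMP pair per kb in both groups, with SDs of 0.94 in the cKO and 0.48 in the control. The proteases (Ctsa, Ctsb, Ctsd, Ctsl and Ctsz) lay between -0.06 and 0.04. Ctsd, the main aspartic protease of the lysosome, had 4623, 4360 and 4585 normalized counts in the cKO against 4617, 4519 and 4558 in the control, which overlapped. Of the 8 other luminal proteins 6 had a log2 fold change below 0. The lowest was Gaa, the glycogen-degrading α-glucosidase, with 2765, 3292 and 3170 normalized counts in the cKO against 3316, 3227 and 3502 in the control. These overlapped because cKO b lay above control b, and the log2 fold change was -0.13 (SE 0.068) with an unadjusted limma p-value of 0.0886 and an adjusted p-value of 1.00. Gla, the α-galactosidase, lay at the other end, with 283, 292 and 260 normalized counts in the cKO against 295, 226 and 213 in the control. Control a, which stood apart in the Y-linked genes, had the highest value of Gla, so the groups overlapped (log2 fold change 0.19, SE 0.15), and without it the log2 fold change was 0.34 with an unadjusted limma p-value of 0.0435 and an adjusted p-value of 0.995. The V-ATPase subunits Atp6v0d1, Atp6v1a and Atp6v1h had log2 fold changes between 0.01 and 0.03.

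The 7 genes with TCACGTGA in the promoter window had a median log2 fold change of 0.01, between -0.03 and 0.19, and 5 of the 7 lay above 0. The 40 genes with a window but without this palindrome had a median of 0.0052, and 20 of the 40 lay above 0. For the shorter form TCACGTG the median of 12 genes was -0.01 with 7 of them below 0, against 0.01 for the 35 genes without it, and for CACGTG the median of 14 genes was 0.0017 with 7 of them above 0, against 0.01 for the 33 genes without it. None of the 7 passed limma's test at an unadjusted p-value under 0.05 or had groups that did not overlap, and no test was made between the 7 and the 40 genes.

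In 7 further lists stood 157 other genes of the pathway, of which 153 were tested. These lists covered mTORC1, AMPK and nutrient sensing, other autophagy genes, HOPS and retromer, the other V-ATPase subunits, other lysosomal enzymes, other lysosomal membrane and sorting proteins, and regulators of TFEB and TFE3. Their median log2 fold change was -0.02, 1 gene was higher and 2 were lower in the cKO at an unadjusted limma p-value under 0.05, where 1.16% and 1.61% of all genes tested were, and 0 passed after adjustment. These 3 of 153 genes are a share of 1.96%, below the 2.78% of all genes tested, and nothing is read from their number. Lamp5, a LAMP protein of the brain that sits in vesicles of specific neurons, had 118, 105 and 145 normalized counts in the cKO against 199, 177 and 187 in the control. Each cKO library lay below each control library, and the log2 fold change was -0.63 (SE 0.17) with an unadjusted p-value of 0.00377 and an adjusted p-value of 1.00 in limma's test. Without any 1 library the unadjusted limma p-value of Lamp5 stayed between 0.00305 and 0.0196. Lamp1 and Lamp2, the widely expressed members of its family, had log2 fold changes of -0.03 (SE 0.044) and -0.04 (SE 0.081).

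Ctsh, an aminopeptidase of the cathepsin family, had 90.9, 95.1 and 89.8 normalized counts in the cKO against 64.6, 57.6 and 72.4 in the control. All cKO libraries were higher, with a log2 fold change of 0.51 (SE 0.22), an unadjusted limma p-value of 0.0360 and an adjusted p-value of 1.00. Ctso, another cysteine cathepsin, had 84.3, 87.7 and 142 in the cKO and 120, 163 and 156 in the control. Its groups overlapped, because cKO c lay above control a, and the log2 fold change was -0.51 (SE 0.23) with an unadjusted limma p-value of 0.0473 and an adjusted p-value of 1.00. With 1 library left out, Ctsh passed this threshold in 1 of 6 fits (without control c) and Ctso in 2 (without cKO c or control a). The 5 cathepsins among the 56 genes, all with higher counts than Ctsh and Ctso, stayed between -0.06 and 0.04.

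Exons of 22 of the 56 genes share bases with another annotated gene, in 20 cases on the opposite strand and in 4 on the same strand, and whether the counting used the strand is not given in the sources used here. The largest shares of exon length were 43.9% for Becn1 with Cntd1, 34.4% for Ctsd with Gm49369 and 31.8% for Atg9a with Gm29253. For Atg2b the share was 2.85%, with Gskip on the opposite strand.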

How the data were processed

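Total RNA of 6 libraries was sequenced. According to the submitters' processing notes the tools included TopHat 1.0.14, Bowtie2 2.1.0, HTSeq 0.6.1p1 and DESeq 1.10.1, with build GRCm38.p4, while the paper names DESeq2 for the test. The deposited signal columns are means per group, for which the authors had scaled each library's read counts by a size factor. The fold change and p-value columns of the deposited table hold the authors' own comparison and were not used. There were 3 lines that name no gene, with 31.8% of the mean counts, and they were left out.

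Whole read counts per library were recovered by an exact search for the whole numbers that give each deposited mean, up to 30000 reads per group, and above that up to a mean of 20000 with each library within 30% of the mean. A single answer in both groups was found for 26720 of 26852 genes (99.5%), which hold 84.2% of the normalized counts. All 56 genes were recovered, Psap and Scarb2 by the second search. Of 600 decoy means in the full search 3 had an answer, and 5 of 400 in the second. Size factors recomputed from the recovered counts differed by at most 0.0373%.

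The 17045 genes whose mean reached 10 normalized counts were fitted on recovered counts with limma 3.58.1 (voom weights, R 4.3.3) with genotype as the term, and Benjamini-Hochberg adjustment ran over all of them. The fit was tested on simulated data with a common spread for all genes, a simpler setting than these libraries, and no calibration of the p-values is drawn from it. Single values were compared by two-sided exact permutation tests. Since the libraries are pools of embryos, p-values measure the spread between pools. Gene symbols and exon lengths came from GENCODE M21 (GRCm38), for 26693 genes. Of the 157 further pathway genes, 1 (Vamp7) was not matched. Alternatives were a minimum mean of 50 or none, limma-trend with pseudocounts of 1 and 10, sample quality weights, 2 other scalings, a threshold of 0.01 and each library left out in turn. Counts over all genes under these alternatives were added after the data had been seen. Members and lists were chosen with earlier results of these data known. Values in every library are given for those of the 56 genes with an unadjusted p-value under 0.05 or groups that do not overlap, for the highest and lowest levels, the widest spreads, the ATG8 family and the MiT/TFE factors, genes of the further pathway lists are named at an unadjusted p-value under 0.05, and other genes were named after their values were seen. Searches ran in Python 3.11.15 (numba 0.67.0, numpy 2.4.6, pandas 2.3.3), permutation tests in scipy 1.17.1 and plots in matplotlib 3.10.9.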

Additional observations from a re-analysis of the deposited data

How the results depend on the processing

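The count of 1 gene of the 56 with an unadjusted limma p-value under 0.05 became 0 with no minimum mean, 2 with sample quality weights (Atg2b and Psap) and 0 at a threshold of 0.01, and ranged from 0 to 2 when 1 library was left out. In these fits Psap passed without cKO a, Gaa without cKO b, Uvrag and Atg2b without cKO c, Gla without control a, Atg2b without control b, and 0 genes without control c. The count of genes with an adjusted p-value under 0.05 stayed at 0 of the 56 in each fit, and the lowest adjusted p-value of limma in any was 0.981. The log2 fold change of Atg2b stayed between 0.10 and 0.18, and 26 of the 56 genes changed sign in at least 1 fit without a library. The median log2 fold change of the 56 genes was -0.0064 with sample quality weights and between -0.0010 and 0.022 without 1 library. With 1 library fewer, where fewer values have to be separated, 7 to 13 of the 56 genes (12.5% to 23.2%) had groups that did not overlap, where 14.1% to 19.3% of all genes tested did not. The 3 other pathway genes became 1 with no minimum mean, 5 with sample quality weights and 1 to 6 without 1 library, and Lamp5 passed in each of these fits.

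Over all genes, 975 passed an unadjusted p-value of 0.05 with no minimum mean, and 336 to 649 without 1 library. The number higher in the cKO was 450 with no minimum mean, 308 with sample quality weights and 129 to 277 without 1 library. After adjustment 0 to 4 genes passed without 1 library, and the 4 genes, Kdm5d, Uty, Ddx3y and Gm11702, passed without control a. All 4 were lower in the cKO in that fit. Kdm5d, Uty and Ddx3y are Y-linked, and control a had the lowest sum of the Y-linked genes (2476 normalized counts). The cause of these changes was not tested. No paired analysis was possible because the recovered libraries cannot be tied to a replicate number. The intervals of Tfeb, Mitf and Atg10 passed 1.5-fold, on 21 to 40, 26 to 54 and 93 to 180 reads per library, and the part of depth in their width was not tested.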
